A study of Homo sapiens with 6 samples.

Results

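The S100 genes described here encode small calcium-binding proteins, and 10 of them were chosen by symbol: S100A2, S100A3, S100A4, S100A6, S100A10, S100A11, S100A13, S100A14, S100A16 and S100P. All 10 were found by their Ensembl identifiers among the 79302 rows of the deposited table, and all 10 passed the filter on low counts that left 16755 genes to test. The choice did not use measured values as a rule, but it was made with earlier results of these data known. RNA-seq was carried out on 6 libraries of HCT116 cells, an established colorectal cancer line, 3 with a control shRNA (shCtrl) and 3 with an shRNA against GDPD5 (shGDPD5), a glycerophosphodiester phosphodiesterase gene. By the paper's account all 6 came from a radioresistant derivative of this 1 line, selected by repeated irradiation, and were collected 6 h after 4 Gy, so the controls were irradiated too. Of these conditions the labels give only the line and the shRNA. Which of the GDPD5 shRNAs was sequenced, and whether the 3 libraries per group are separate cultures, is not stated, so p-values measure only the spread between these libraries, which may be technical.

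S100 proteins are short, mostly pair with a second S100 chain, and carry EF-hand loops, folded stretches that hold a calcium ion. Calcium binding opens a surface through which most of them grip other proteins, among them annexins and myosin, and some are released from cells and act on the receptor RAGE. In gut epithelium and its cancers several are abundant, and S100A4, S100A6, S100A11 and S100P are widely studied as markers of invasive or altered growth. Most S100 genes lie side by side on chromosome 1 within the epidermal differentiation complex, whereas S100P lies on chromosome 4.

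The 3 shCtrl libraries held 17602320 to 18076702 counts and the 3 shGDPD5 libraries 16715447 to 18510670. GDPD5 itself was lower in every shGDPD5 library (5.19 to 5.55 CPM, counts relative to the TMM-scaled library size) than in every shCtrl library (8.33 to 11.6 CPM), a log2 fold change equal to -0.88 (SE 0.13, edgeR adjusted p = 0.000116). Of 12 markers of colonic epithelium 7 had at least 10 counts in every library, with EPCAM and the keratins KRT8, KRT18 and KRT19 abundant, while CDX1 was at 0 and LGALS4, GPA33 and CEACAM5 had at most 3 counts. The summed level of the 12 epithelial markers was 3173.8 to 3613.4 CPM in shCtrl and 2529.0 to 2636.8 CPM in shGDPD5. Of the 7 tested, 6 were lower at an edgeR adjusted p under 0.05. Among all tested genes 59.7% passed this threshold, 29.7% higher and 30.1% lower. KRT8, among the lower markers, had a log2 fold change of only -0.16, with groups that overlapped. KRT20 rose from a mean of 1.17 to 2.74 CPM (log2 fold change 1.23, edgeR adjusted p = 0.000203). Of 8 leukocyte markers, PTPRC had at most 2 counts and CD3E was at 0, and only CD68, a lysosomal protein gene, had at least 10 counts in every library (45 to 188). It fell from 8.21 ± 2.34 to 2.66 ± 0.235 CPM (SD, n = 3 each), a log2 fold change equal to -1.63 (SE 0.20, edgeR adjusted p = 1.82e-05), LYZ had 5 to 13 counts, and the list summed to 7.57 to 12.1 CPM in shCtrl and 3.74 to 3.92 CPM in shGDPD5. Of 6 fibroblast markers COL1A1 had 323 to 417 counts (log2 fold change 0.11, edgeR adjusted p = 0.242) while the others had at most 6, with COL1A2, DCN and LUM at 0, and the list summed to 19.04 to 21.6 CPM in shCtrl and 20.7 to 24.2 CPM in shGDPD5. The 4 endothelial markers summed to 0.692 to 1.3 and 0.395 to 0.747 CPM, with CDH5 at 0. The part of these markers in the differences below was not tested. In bulk libraries, fewer cells with a transcript and less transcript per cell cannot be told apart.

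Sequences just before the annotated start were compared for the members, because they moved in opposite directions although most are neighbours. RefSeq (GRCh38.p14) gave 14 windows for the 10 members, each from 250 bases before to 50 after a start. The letters TATAAA, the core of a TATA box, were searched on both strands, and so were the letters TGANTCA, an AP-1 type site that reads alike on both strands. TATAAA occurred in 3 member windows against 11.5% of 35116 windows of all genes, and TGANTCA in 2 member windows against 7.71%. The 120 bases before the start are shown 5′ to 3′ on the gene's strand for S100P, whose transcript fell furthest, for S100A4 and S100A13, which also hold TATAAA (S100A13 in 1 of its 3 windows) but moved in opposite directions, for S100A2, which did not pass the test and holds TGANTCA in 1 of its 2 windows, and for the neighbours S100A10 and S100A11. Capitals mark the matched letters.
S100P, chr4:6693758-6693877, plus strand: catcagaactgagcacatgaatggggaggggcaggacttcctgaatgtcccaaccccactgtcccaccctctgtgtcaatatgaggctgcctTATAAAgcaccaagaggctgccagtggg
S100A4, chr1:153545807-153545926, minus strand: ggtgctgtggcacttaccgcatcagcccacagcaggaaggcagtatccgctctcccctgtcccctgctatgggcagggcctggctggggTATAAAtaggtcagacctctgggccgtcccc
S100A13, chr1:153627506-153627625, minus strand: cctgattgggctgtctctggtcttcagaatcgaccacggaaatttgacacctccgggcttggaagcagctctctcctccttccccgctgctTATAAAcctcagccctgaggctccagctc
S100A2, chr1:153565845-153565964, minus strand: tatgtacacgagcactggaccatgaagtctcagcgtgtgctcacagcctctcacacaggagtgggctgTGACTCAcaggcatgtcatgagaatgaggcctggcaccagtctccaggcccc
S100A10, chr1:151993860-151993979, minus strand: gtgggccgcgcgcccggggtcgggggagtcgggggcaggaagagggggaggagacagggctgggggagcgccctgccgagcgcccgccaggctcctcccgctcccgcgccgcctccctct
S100A11, chr1:152037005-152037124, minus strand: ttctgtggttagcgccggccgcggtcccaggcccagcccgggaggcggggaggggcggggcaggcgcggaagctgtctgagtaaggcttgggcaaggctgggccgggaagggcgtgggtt
The TATAAA of S100P begins 28 bases before the start, that of S100A4 31 bases and that of S100A13 29 bases before. The TGANTCA match of S100A2 begins 52 bases before its start, and the other lies 225 bases before the start of S100A3. No match to either set of letters was found in the windows of S100A6, S100A10, S100A11, S100A14 and S100A16. The window of S100A10 held 71.7% G and C, that of S100P 56.0%. Genes with TATAAA rose (S100A4) as well as fell (S100A13, S100P), and a match here describes letters only.

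Of the 10 members, 2 rose and 6 fell with shGDPD5 at an adjusted p under 0.05 (quasi-likelihood test of edgeR, adjusted over all 16755 genes), and 2 did not pass. S100A10 rose 2.36-fold, S100A4 rose modestly, and S100A14, S100A11, S100A16, S100A6, S100A13 and S100P fell. S100P passed the filter on low counts only through the shCtrl libraries, where it was higher, so its call is not independent of the filter. Across all tested genes 59.7% passed the same test, 29.7% higher and 30.1% lower, so a called gene is common in this comparison. The median log2 fold change of the members was -0.33, against 0.01 over all tested genes, and it was also -0.33 with S100P at its bound given below. In 8 of the 10 members the groups did not overlap, 2 of them higher and 6 lower, as in 64.9% of all tested genes (32.6% higher and 32.4% lower). The methods of the study give a pair of fold criteria beside an unadjusted p under 0.05, and both were applied here to the values of edgeR. With a log2 fold change of 1 or more in size, 1 member was higher, S100A10, and 1 was lower, S100P, against 5.38% and 6.6% of all tested genes. With a fold above 1.5 or below 0.5, the same 2 members passed, against 13.6% and 6.6%.

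**Figure D1:**
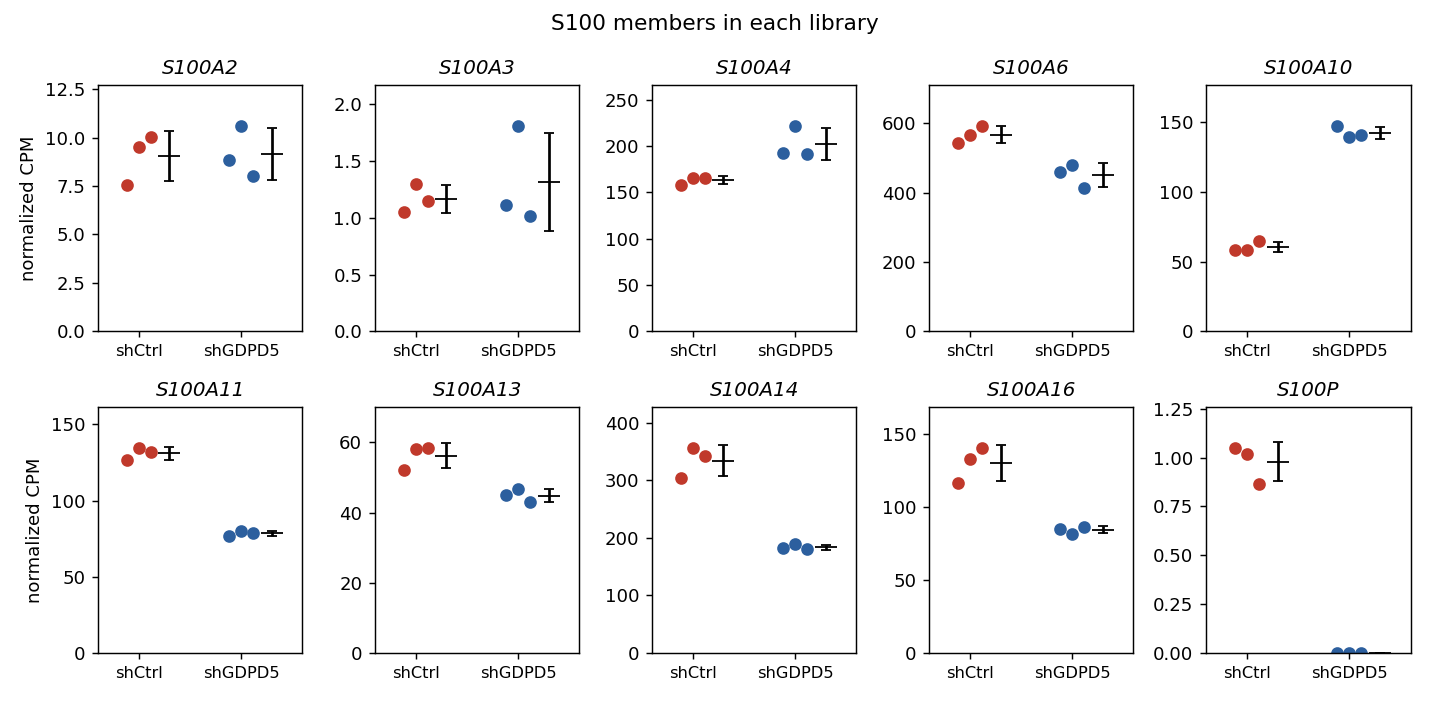
Level in CPM after TMM scaling (y axes from 0) of the 10 S100 members with 3 shCtrl libraries in red and 3 shGDPD5 libraries in blue; each point is 1 library, and black marks give the mean and SD. S100A10 and S100A4 lie higher in every shGDPD5 library, S100A2 and S100A3 overlap between the groups, the other members lie lower, and S100P is at 0 in all 3 shGDPD5 libraries.

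S100A10 (ENSG00000197747, also p11) has lost the ability to bind calcium and instead pairs constantly with annexin A2 at the plasma membrane, where the complex binds plasminogen and carries channels to the surface. It is transcribed from the minus strand of chromosome 1, between 151982915 and 151994390 (GENCODE release 29, GRCh38, used for all gene positions here). Its level was 58.2, 58.1 and 64.5 CPM in the shCtrl libraries and 147.4, 139.2 and 141.0 CPM in the shGDPD5 libraries. The groups lay far apart, with every shGDPD5 library more than double any shCtrl library. Mean levels were 60.3 ± 3.63 and 142.5 ± 4.29 CPM (SD, n = 3 each), a log2 fold change equal to 1.24 (SE 0.06, edgeR adjusted p = 2.07e-09). From 1000 to 2609 counts per library stood behind these values.
S100A4 (ENSG00000196154, metastasin), which binds the heavy chain of non-muscle myosin IIA and acts in cell motility, was the other member that rose. In the shCtrl libraries it stood at 158.5, 165.9 and 166.1 CPM, and in the shGDPD5 libraries at 192.6, 221.8 and 191.5 CPM. The groups did not overlap, although shGDPD5 replicate 2 stood above its group. The log2 fold change was 0.31 (SE 0.06, edgeR adjusted p = 0.000714), and it was between 0.23 and 0.34 when each library was left out in turn. The gene lies on the minus strand from 153543613 to 153550136 and encloses S100A3.

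S100A11 (ENSG00000163191, calgizzarin) binds annexin A1 and takes part in membrane repair. It is the next S100 gene after S100A10, on the minus strand from 152032506 to 152047907, and it moved the other way. Its levels of 126.4, 134.7 and 132.2 CPM in shCtrl compared with 76.9, 79.9 and 78.5 CPM in shGDPD5. No shGDPD5 library came near the control range, and 59.8% of the control level was left (log2 fold change -0.74, SE 0.05, edgeR adjusted p = 6.13e-08). All 10 rows of the table named as S100 pseudogenes, 8 of them copies of S100A11, were at 0 in every library, so how reads matching both were assigned is not visible here.
S100A14, S100A16 and S100A13 lie next to each other on the minus strand, and all 3 fell. S100A14 (ENSG00000189334), an epithelial S100 protein linked to adhesion and motility, had 304.1, 356.9 and 342.4 CPM in shCtrl and 182.1, 189.2 and 180.4 CPM in shGDPD5. Every shGDPD5 library lay below every shCtrl library, and 55.0% of the control level was left, with a log2 fold change equal to -0.86 (SE 0.06, edgeR adjusted p = 8.22e-08). S100A16 (ENSG00000188643), a broadly expressed member, was at 116.6, 133.2 and 140.7 CPM in shCtrl. In shGDPD5 it was at 84.9, 81.8 and 86.4 CPM, below all control libraries, a log2 fold change equal to -0.63 (SE 0.07, edgeR adjusted p = 4.49e-06). For both genes, as for most members, the lowest control value was that of shCtrl replicate 1. The summed level of all 10 members was 1367.2 CPM in that library, against 1485.2 and 1508.4 CPM in shCtrl replicates 2 and 3. Without shCtrl replicate 1, the folds of S100A14 and S100A16 were larger and not smaller (-0.93 and -0.70 on the log2 scale).
S100A13 (ENSG00000189171) helps FGF1 and interleukin 1α leave the cell without a signal peptide. Its levels were 52.2, 58.1 and 58.5 CPM in shCtrl and 44.9, 46.6 and 42.9 CPM in shGDPD5, groups that were close but did not overlap. The log2 fold change was -0.33 (SE 0.06, edgeR adjusted p = 0.00066). Of its 917 exonic bases 28 are shared with S100A1 on the other strand and 318 with AL162258.1, a processed transcript on the same strand, and reads there could belong to either gene.

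S100A6 (ENSG00000197956, calcyclin) binds CACYBP and SUGT1 and is typical of proliferating cells. With 7316 to 10265 counts per library it was also the member with the most reads. It had 541.6, 566.4 and 592.0 CPM in shCtrl against 459.0, 479.1 and 412.6 CPM in shGDPD5. The groups did not overlap, but the distance between the nearest libraries was of the order of the spread within a group. The log2 fold change was -0.33 (SE 0.06, edgeR adjusted p = 0.000288), between -0.39 and -0.27 with each library left out in turn.
S100P (ENSG00000163993), transcribed from the plus strand of chromosome 4 between 6693069 and 6697170, binds ezrin and RAGE and is often abundant in pancreatic and colorectal tumors. In these libraries it was a low-count member. Under shCtrl it had 18, 18 and 15 counts (1.05, 1.02 and 0.865 CPM) and 0 counts in each of the 3 shGDPD5 libraries. The groups were thus fully separated at a very low level. The gene passed the filter on low counts only through shCtrl, so its edgeR adjusted p = 2.06e-05 is not independent of that filter. Summed over each group, 51 counts stood against 0, and with a floor of 3 counts over the group the transcript was at least 17.4-fold lower, a bound for counting error only. A fitted fold change beyond this bound depends on the prior count and is not given.

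S100A2 and S100A3 did not pass the test. S100A2 (ENSG00000196754), a mostly nuclear S100 protein, had 7.57, 9.54 and 10.03 CPM in shCtrl and 8.83, 10.6 and 8.01 CPM in shGDPD5, so the groups interleaved. The log2 fold change was 0.02 with a 95% interval from -0.28 to 0.31 (edgeR adjusted p = 0.932). S100A3 (ENSG00000188015), a cysteine-rich protein of the hair cuticle, had 18 to 34 counts per library. Its levels were 1.05, 1.30 and 1.15 CPM in shCtrl and 1.11, 1.81 and 1.02 CPM in shGDPD5, of which replicate 2 stood above the control range and replicate 3 just below it. At this depth a change of this gene between -0.44 and 0.79 on the log2 scale (95% interval) was not resolved (edgeR adjusted p = 0.611). The sign of both values turned when shGDPD5 replicate 2 was left out (-0.11 for S100A2 and -0.14 for S100A3), and for S100A2 also without shCtrl replicate 1 (-0.10).

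**Figure D2:**
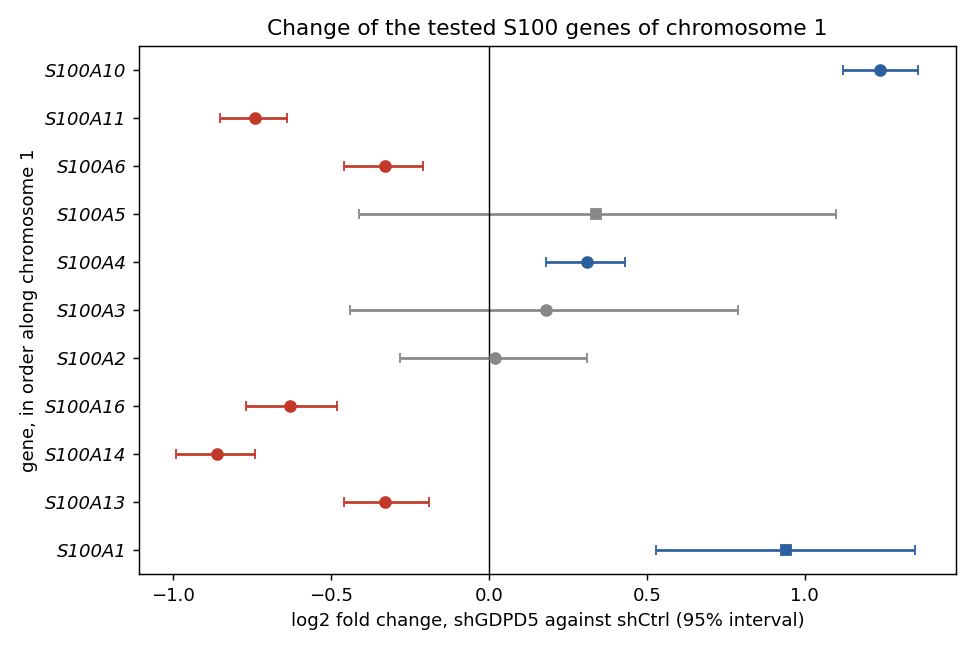
Log2 fold change of shGDPD5 against shCtrl (x axis) with its 95% interval for the 11 tested S100 genes of chromosome 1, in order along the chromosome (y axis); circles are members, squares other S100 genes, blue higher, red lower and grey not past an adjusted p of 0.05. S100A10 at 1.24 and S100A11 at -0.74, which are adjacent S100 genes, lie on opposite sides, and S100A16, S100A14 and S100A13 all lie below 0.

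The other genes of the family were mostly silent in these libraries. Of 11 S100 genes that are not members, 9 had at most 1 count in any library, and 6 of those were at 0 throughout: S100A7A, S100A7L2, S100A8, S100A9, S100A12 and S100G. S100A8, S100A9 and S100A12 are the calgranulins of myeloid cells. S100A1 (ENSG00000160678), a calcium sensor known from heart muscle, was the exception that rose. It had 26 counts in each shCtrl library and 55, 51 and 48 in the shGDPD5 libraries (1.47 to 1.51 and 2.71 to 3.21 CPM), and the groups did not overlap. The log2 fold change was 0.94 (SE 0.19, edgeR adjusted p = 0.000865), opposite in sign to that of S100A13, with which it overlaps on the other strand. Of the 1003 exonic bases of S100A1, 28 are shared with S100A13 and 169 with AL162258.2, an antisense gene. The strand setting of the counts is not given, so reads there could belong to either gene. S100A5, with 9 to 24 counts, had a log2 fold change of 0.34 (95% interval -0.41 to 1.10, edgeR adjusted p = 0.413).

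As a pool, the 10 members held 0.133% to 0.147% of all counts under shCtrl and 0.117% to 0.127% under shGDPD5. Within the pool, the share of S100A10 went from 3.91% to 4.27% of member counts in shCtrl to 11.1% to 12.3% in shGDPD5. That of S100A4 went from 11.01% to 11.6% to 16.1% to 17.7%, and that of S100A14 from 22.2% to 24.0% to 15.1% to 15.8%. S100A6 kept a similar share in both groups, 38.1% to 39.6% and 36.1% to 38.3%.
On a scale per length (CPM per kilobase of annotated exons), S100A6 had the highest level in both groups, with medians of 668.8 in shCtrl and 541.9 in shGDPD5. In shCtrl it was followed by S100A14 (268.2), S100A11 (222.6), S100A4 (200.6), S100A16 (82.6), S100A13 (63.4) and S100A10 (46.3), and far below by S100A2 (6.09), S100A3 (1.21) and S100P (0.794). No neighbours in this order overlapped in their 3 values. In shGDPD5 the order was S100A6, S100A4 (232.9), S100A14 (142.6), S100A11 (132.2), S100A10 (112.1), S100A16 (52.6), S100A13 (49.0), S100A2 (5.63) and S100A3 (1.16), with S100P at 0. There S100A16 and S100A13 overlapped in their levels, and S100A4 and S100A10 had each moved up by 2 places. Which transcript lengths the authors' counting used is not stated here, so these levels carry the error of the annotated length.

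Genes of proteins that bind S100 proteins were read in the same fit, from a list written from general knowledge. Of 27 such genes 22 were tested, of which 8 were higher, 6 were lower and 8 did not pass, with a median log2 fold change of 0.06. The 63.6% that passed is near the 59.7% of all tested genes, of which 29.7% were higher and 30.1% lower. ANXA2, the partner of S100A10, rose together with it, from 1115.4, 1136.2 and 1159.3 CPM to 1421.2, 1442.8 and 1426.5 CPM. Its log2 fold change equal to 0.33 (SE 0.04, edgeR adjusted p = 9.59e-06) was smaller than that of S100A10, with 95% intervals of 0.25 to 0.41 and 1.12 to 1.36 that do not overlap. AHNAK, a large scaffold that binds the S100A10 and annexin A2 complex, had -0.06 (edgeR adjusted p = 0.326). TRPV6, a calcium channel that this complex brings to the membrane, fell from 12.5 to 13.4 CPM in shCtrl to 0.643 to 1.35 CPM in shGDPD5.
ANXA1, the partner of S100A11, fell as S100A11 did, from 809.8, 740.9 and 753.3 CPM to 508.3, 514.7 and 498.7 CPM (log2 fold change -0.60, SE 0.05, edgeR adjusted p = 2.23e-07). CACYBP and SUGT1, partners of S100A6, went against it, since CACYBP rose from 69.8 to 75.2 CPM in shCtrl to 128.2 to 131.0 CPM in shGDPD5 (log2 fold change 0.86, edgeR adjusted p = 2.05e-08), and SUGT1 had 0.36 (edgeR adjusted p = 0.00031). MYH9, the myosin heavy chain that S100A4 binds, had -0.03 (95% interval -0.15 to 0.09; -0.09 with an edgeR adjusted p = 0.0236 without shCtrl replicate 1), and PPFIBP1 (liprin β1), another S100A4 partner, -0.10 (edgeR adjusted p = 0.142). EZR, which encodes ezrin, a partner of S100P that ties the membrane to actin, fell from 2120.0 to 2269.4 CPM in shCtrl to 1100.6 to 1124.3 CPM in shGDPD5 (edgeR adjusted p = 1.05e-09). IQGAP1, a scaffold that also binds S100P, rose by 0.22, and S100PBP, named for its binding to S100P, rose by 0.35 on the log2 scale. Of the partners of S100A13, SYT1 fell with a log2 fold change of -0.43, and so did IL1A (-1.78) at 0.160 to 0.873 CPM. IL1A passed the filter on low counts only through its shCtrl libraries, where it was higher. MDM2, a ubiquitin ligase gene on the same list, rose by 0.59 on the log2 scale. AGER, the gene of RAGE, had 0.30 (edgeR adjusted p = 0.144), ERBB2, reported to bind S100A14, had 0.15 (edgeR adjusted p = 0.0574), and the phospholipase gene PLA2G4A, whose product binds S100A10, had 0.19 (edgeR adjusted p = 0.094).

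**Figure D3:**
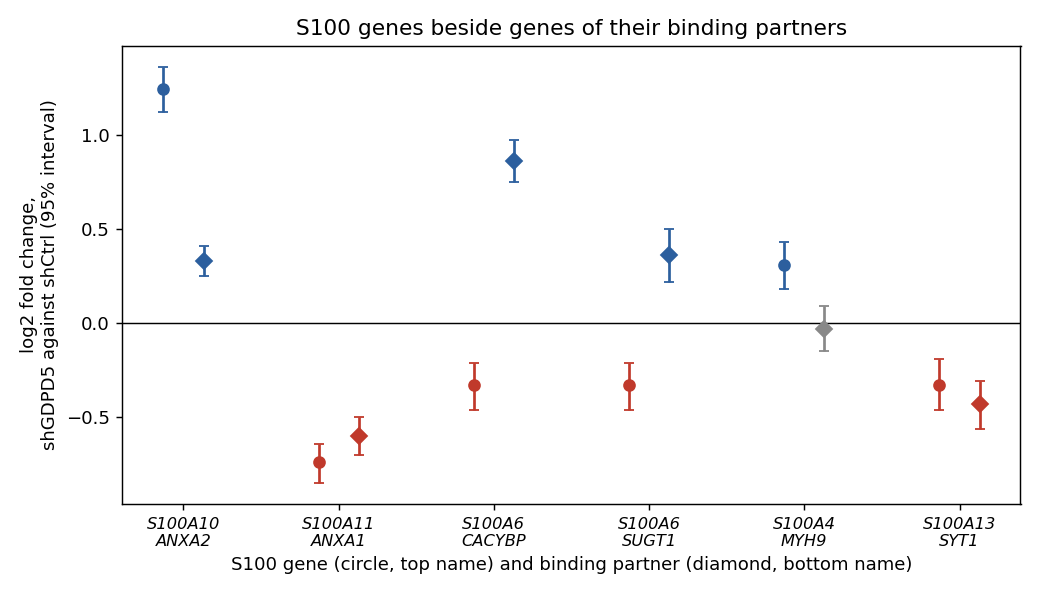
Log2 fold change of shGDPD5 against shCtrl (y axis) with its 95% interval for S100 genes (circles) beside genes of proteins that bind them (diamonds), as 6 pairs along the x axis; blue is higher, red lower and grey not past an adjusted p of 0.05. S100A10 and ANXA2 lie above 0, S100A11 and ANXA1 below, and S100A6 lies below 0 while CACYBP and SUGT1 lie above. The 6 pairs are a selection from the partners in the text. Not drawn are, for example, 2 partners of the S100A10 and annexin A2 complex, AHNAK, which did not pass, and TRPV6, which fell.

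Annexins as a family, the best known partners of S100 proteins, also moved both ways. Of 13 genes 10 were tested, with 3 higher, 4 lower and 3 not past the test, and a median log2 fold change of -0.10. The share that passed was 70.0%, near the 59.7% of all tested genes, of which 29.7% were higher and 30.1% lower. Beside ANXA1 and ANXA2, ANXA3 and ANXA4 fell with log2 fold changes of -0.63 and -0.42 (adjusted p = 1.94e-07 and 1.67e-05 from edgeR). ANXA6 had 0.20 (edgeR adjusted p = 0.0405), a call that was lost without shCtrl replicate 1 (0.10) and without shGDPD5 replicate 1, 2 or 3 (0.19, 0.19 and 0.21). The remaining annexins that passed, named after their values were seen, were ANXA10 (1.66, at 0.582 to 3.38 CPM) and ANXA5 (-0.11). ANXA11, a partner of S100A6, had -0.11 (edgeR adjusted p = 0.148), and passed only without shCtrl replicate 1 (-0.18).

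The position of the members on chromosome 1 was also compared with that of other genes. Within 1 Mb of a member on chromosome 1, 56 genes that are not S100 genes were tested, of which 25 were higher, 8 were lower and 23 did not pass, with a median log2 fold change of 0.22. The share called in either direction, 58.9%, was close to the 59.7% of all tested genes. By direction they differed, since 25 neighbours were higher and 8 lower, while of all tested genes 29.7% were higher and 30.1% lower. Among the 9 members on chromosome 1, 2 were higher and 5 were lower. Of the neighbours that passed, HRNR (1.92) and JTB-DT (1.74) had the largest positive log2 fold changes, and the unnamed gene ENSG00000285867 (-0.90) was among the lowest, all at low counts. HRNR and JTB-DT had fewer than 10 counts in each shCtrl library and passed the filter only through shGDPD5, where they were higher. The call of ENSG00000285867 was lost without shCtrl replicate 2 or 3 (-0.75 and -0.90) or shGDPD5 replicate 1 or 2 (-0.76 and -0.82). HRNR encodes hornerin, a protein of the S100-fused type, in which an S100 domain heads a long repeat, and it was the only tested one of 7 such genes, with 2 to 15 counts per library.

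**Figure D4:**
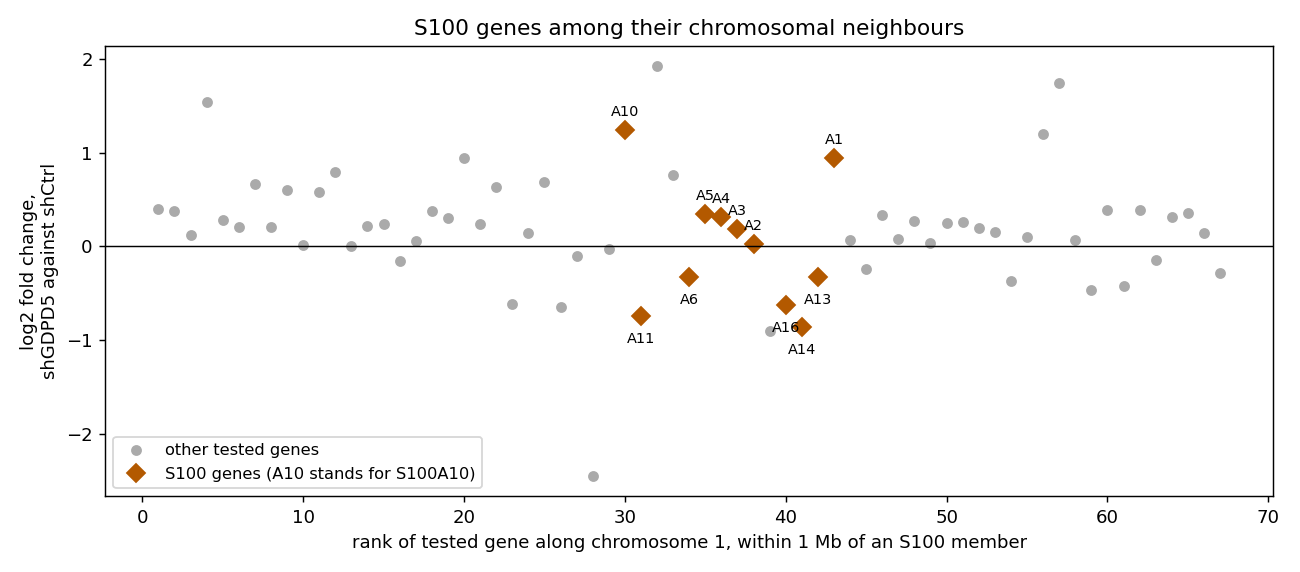
Log2 fold change of shGDPD5 against shCtrl (y axis) of tested genes within 1 Mb of an S100 member, ranked along chromosome 1 (x axis); brown diamonds are S100 genes, labelled without the prefix S100, and grey points the 56 other genes. S100A10 and S100A1 lie above most neighbours, and S100A11, S100A16 and S100A14 below most of them.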

How the data were processed

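The authors deposited estimated counts by gene for all 6 libraries in a single table, prepared per the labels with a SMARTER kit for mRNA-Seq on total RNA. Aligner, counter, strand setting and build: not given in the sources used here. Groups came from the sample titles. The estimated counts were rounded to whole numbers (a change of at most 0.5). Genes were filtered with the default of edgeR (minimum count 10), which left 16755 of 79302 rows, 370 of the latter carrying only a processing name, then TMM-scaled and compared by edgeR 4.0.16 (R 4.3.3) with its quasi-likelihood test (3 libraries against 3), with Benjamini-Hochberg adjustment over all tested genes. CPM uses the TMM-scaled library sizes. Depth of 16715447 to 18510670 counts limits precision for genes of a few counts. Two-sided exact permutation of 3 against 3 libraries cannot go below p = 0.1 for a single gene.

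The members, lists and motifs were chosen with earlier results of these data known. Named genes are the members, the other S100 genes, GDPD5, the 4 tested genes of smallest adjusted p in each comparison list, the binding partners of tested members, and the 2 highest and 2 lowest neighbours that passed, and some genes that fall under this rule are not reported here. Symbols came from a table matched by Ensembl identifier, which named 77.5% of rows. Exon lengths are unions over GENCODE 29 basic transcripts. Alternatives were RLE and upper quartile factors, other count filters, DESeq2 1.42.0, limma-voom (limma 3.58.1), a per-gene test on log2(CPM + 1) of the kind the study states, its fold criteria, a replicate block, and each library left out. Protein sequences were not used here.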

Additional observations from a re-analysis of the deposited data

How the results depend on the processing

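The 2 members that rose and the 6 that fell kept their direction and their side of the adjusted threshold under every alternative run on them, with RLE or upper quartile factors, other filters, DESeq2, limma-voom, the per-gene test on log2(CPM + 1) and each library left out; S100P is not in the table under a minimum of 10 counts in every library, which leaves 5 lower members. With a log2 fold change of 1 or more in size added to the threshold, by adjusted or unadjusted p, 1 member was higher and 1 was lower, and so it was with a fold above 1.5 or below 0.5 by unadjusted p, an alternative chosen after seeing the data. Left-out libraries gave S100A2 a log2 fold change from -0.11 to 0.10 and S100A3 one from -0.14 to 0.33, and MYH9, at -0.03 with all libraries, ranged from -0.09 to 0.0011; none of these 3 had passed the test. Among the other named genes and the partners listed, 17 values over the alternatives lost a call and 5 gained one, all without a change of sign; these were of ANXA6, ANXA11, BSG, ERBB2, IQGAP1, MYH9, PLA2G4A and ENSG00000285867. Whether libraries with equal replicate numbers were prepared as pairs is not stated. Their deviations from the group means correlated at -0.07, -0.0517 and -0.041, so no shared deviation was seen. With the number as a replicate block, 9645 genes were called instead of 10006, and 2 members were higher and 6 lower as before. Replicates differed by more than sampling noise (chi-square per degree of freedom 1.66 to 7.13), and the highest values involved shCtrl replicate 1. Members of few counts (S100A3, S100P) are limited by depth, the others by the 3 libraries per group.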

Other observations

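Calcium-binding proteins with EF-hands outside the S100 family changed in both directions as well. Of 39 such genes 31 were tested, of which 9 were higher, 14 were lower and 8 did not pass at an adjusted p under 0.05 from edgeR, with a median log2 fold change of -0.16. Of those tested 74.2% passed, against 59.7% of all tested genes (29.7% higher and 30.1% lower), so calls in both directions are common here. CALB2, which encodes the calcium buffer calretinin, fell from 24.1 to 25.9 CPM in shCtrl to 1.81 to 2.40 CPM in shGDPD5, a log2 fold change equal to -3.52 (SE 0.12, edgeR adjusted p = 1.54e-10). NUCB2, a Golgi and secreted calcium binder, fell with -1.24, the neuronal calcium sensor gene HPCAL1 with -1.17, and RCN2, a reticulocalbin of the endoplasmic reticulum, with -0.94 on the log2 scale.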
